A study of Caenorhabditis elegans with 3 samples.

Results

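The transcripts of unexposed young adult Caenorhabditis elegans were described from 1 array of the 3 in the series, the array at 0 h. The worms were hermaphrodites of the wild-type laboratory strain N2, 3 days old, raised on agar with Escherichia coli OP50 as food from an age-synchronised culture, and the label gives their treatment as none. The other 2 arrays came from worms of the same strain, sex and stage kept for 4 h or 24 h in K-medium, a salt solution, with multiwall carbon nanotubes at 1 mg/L, and no ratio to them was formed. Whether the worms at 0 h had been placed in K-medium is not given in the sources used here. Total RNA of whole worms was labelled from the 3' end and hybridised to an Affymetrix array, on which each transcript is read by a probe set, a group of short probes. Of 22625 probe sets, 20766 were annotated to exactly 1 gene symbol, and these cover 17138 genes. Genes were ranked by intensity, and where several probe sets read a gene the brightest stood for it.

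A young adult hermaphrodite holds muscle, intestine, epidermis and nerve cells around a large gonad. The gonad makes sperm before it switches to oocytes, which are loaded with maternal RNA and protein. Yolk for the oocytes is made in the intestine, and the epidermis secretes a collagen cuticle that is renewed at each larval moult.

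The signal was concentrated in few genes. The brightest 10 percent of genes, 1713 of 17138, held 66.2% of the summed gene intensity, and the brightest 1 percent, 171 genes, held 22.9%. Intensities ran between 9.87 and 31806 with a median of 105.2. The background floor was set at 60.03, the brightest of 8 control probe sets for transcripts that worms do not have, and 10359 genes (60.4%) lay above it. The genes at or below it together held 1.84% of the summed intensity. The lower limit of the brightest 10 percent fell at 1507, between R05D11.9 just inside at 1506.57 and let-413 just outside at 1506.56, and that of the brightest 1 percent at 9152.

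**Figure D1:**
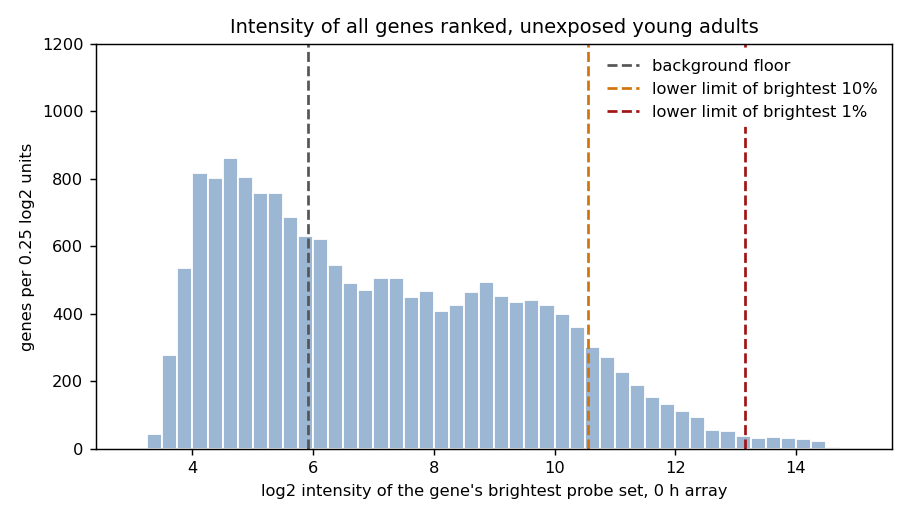
Number of genes (vertical axis) by the log2 intensity of their brightest probe set on the 0 h array (horizontal axis, bins of 0.25). Dashed lines mark the background floor at an intensity of 60.03 and the lower limits of the brightest 10 percent (1507) and 1 percent (9152), and most genes lie far left of the 2 upper limits.

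Probe sets bind their targets with different strength, so a rank of intensity is not a rank of transcript amount. The error of the order was read from genes with 2 probe sets. In 2201 such genes the brighter probe set was above the floor. It exceeded the dimmer by a median of 3.47-fold, or 1.79 on the log2 scale, and by 11.7-fold at the 90th percentile. In 743 of these genes neither probe set was marked by the manufacturer as able to bind other transcripts, and there the median was 4.38-fold. The dimmer probe set was at or below the floor in 486 of the 2201 and 222 of the 743, where the gap is partly one to background. Of 691 such genes in the brightest 10 percent this held for 22, and their median gap was 4.39-fold. Neighbours in the ranking therefore did not differ beyond this spread, and membership in a broad band carries more than a position within it. There is no replicate of this array, so no test was made, and precision is limited by that number of arrays. Fewer cells of a type and less RNA per cell cannot be told apart in RNA of whole worms.

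**Figure D2:**
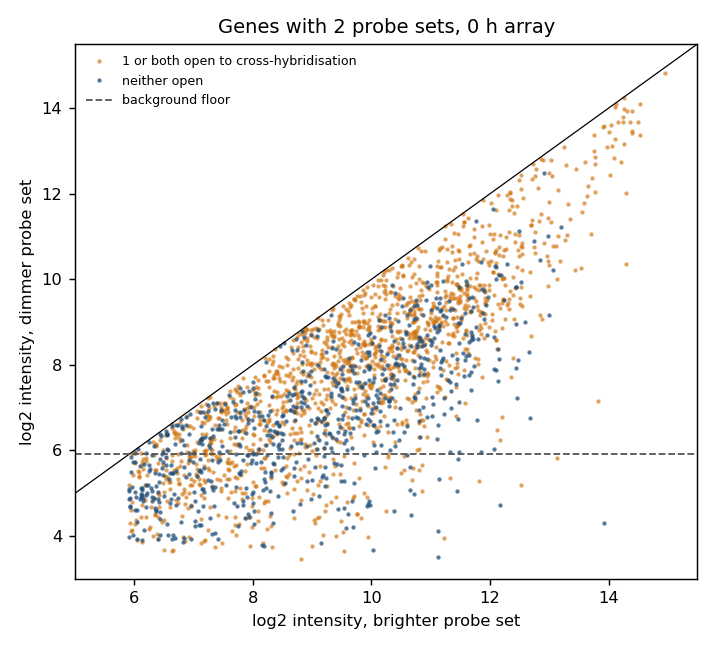
Log2 intensity of the dimmer probe set (vertical axis) against the brighter (horizontal axis) for genes with 2 probe sets on the 0 h array, 1 point per gene, with the diagonal of equal intensity. Only the brighter probe set had to be above the floor. Blue points are the genes with neither probe set open to cross-hybridisation, and their median gap was 4.38-fold, against 3.47-fold over all 2201 genes.

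Genes that mark sex and stage were read against the labels. Of 9 genes known from males, 1 was above the floor, cwp-5 at 127, where all genes give 60.4%. The adult cuticle collagen col-19 reached 5392, while the other adult collagens bli-2 and bli-1 had 329 and 244. Of 3 cuticle genes linked to the dauer larva, a resting stage, col-2 had 235, cut-1 had 102 and col-40 had 25.8, under the floor. Male genes were thus low, but chemoreceptors (3.14%) and cilium transport genes (22.6%) also had few members above the floor. The male count alone therefore does not give the sex. Of the 3 ranked adult collagens only col-19 was in the brightest 10 percent. The percentiles of bli-2 and bli-1, 67.9 and 63.8, lay near the 63.1 of the dauer gene col-2. Dauer genes had 66.7% above the floor, near the share of all genes, so these lists do not settle the stage.

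Ribosomal proteins, cuticle collagens and yolk proteins filled the top of the ranking. Of the 30 brightest genes, 20 encode cytosolic ribosomal proteins, 6 cuticle collagens and 2 yolk proteins. The brightest gene was the collagen col-93 at 31806, whose other probe set read 29045, both of them open to cross-hybridisation. It was followed by vit-5, a yolk protein gene, at 25930.1, and by the ribosomal genes rps-25 at 25080.2, rpl-23 at 24119 and rpl-17 at 23609. The 30 ended at 19421, so their whole range is narrower than the usual gap between 2 probe sets of a gene. Among the 100 brightest there were 61 ribosomal and 12 collagen genes. Of these 30 genes, 24 were read by probe sets open to cross-hybridisation, as were 71.9% of the brightest 1 percent, 45.7% of the brightest 10 percent and 24.6% of all genes. The part of cross-hybridisation in the ranking was not tested beyond leaving such probe sets out.

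**Figure D3:**
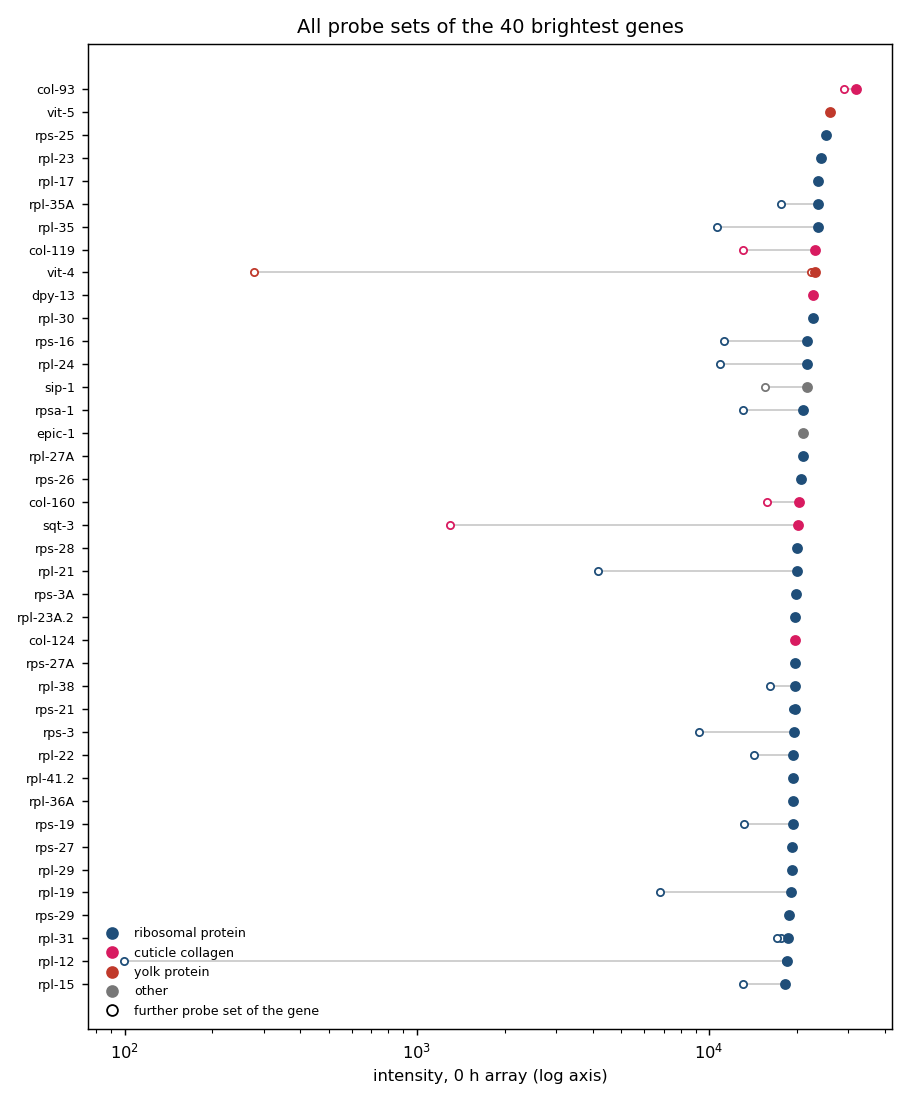
Intensity on a log axis (horizontal) of every probe set of the 40 brightest genes at 0 h, brightest gene on top. Filled points are the probe set that ranked the gene and open points its further probe sets, which reach down to 278 in vit-4 and 99.8 in rpl-12.

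Of the lists with more than 30 genes, cytosolic ribosomal proteins had the highest median rank. Of 82 ranked genes for cytosolic ribosomal proteins, the structural proteins of the ribosome, 81 were among the brightest 10 percent, where all genes give 10.0%. Of the 82, 74 were among the brightest 1 percent, where all genes give 0.998%. Their median percentile was 99.7, against 50 over all genes. The exception was rpl-42, whose only probe set read 54.3, under the floor, and next lowest was rps-20 at 4405. Elongation factors, which drive the growth of the peptide chain, had 6 of 7 genes in the brightest 10 percent. They were eef-1A.1 at 17905, eef-2 at 12889, eef-1G at 11215, eef-1B.1 at 9152, eef-1A.2 at 4894 and eef-1B.2 at 3528. The last of the 7, efk-1, is the kinase that acts on elongation factor 2, and it read 469.

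Other parts of gene expression lay lower than the ribosome itself. Initiation factors had 12 of 33 genes in the band of the brightest 10 percent, led by iff-1, an eIF5A homologue, at 12934 and the poly(A)-binding protein pab-1 at 8545. Their dimmest member was ife-4, a cap-binding protein, at 86.2. Of 32 aminoacyl tRNA synthetases, which load amino acids on tRNA, 11 were in the band, led by nars-1 at 5717, and wars-1 lay under the floor at 37.3. Proteins of the mitochondrial ribosome had 6 of 58 genes in the band, a share of 10.3% that lies near that of all genes, although 56 of the 58 were above the floor. The nucleolar methyltransferase fib-1 read 12774. Of 11 subunits of RNA polymerase II, 9 were in the band, between rpb-10 at 3120 and rpb-2 at 356. Of 42 splicing genes, 16 were in it, led by the Sm protein snr-2 at 8114. Core histones had 3 of 25 in the band, a share of 12% that lies near the 10.0% of all genes, and linker histones had 4 of 9.

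Genes for yolk and eggshell were among the brightest of the reproductive lists. The yolk gene vit-3 has no probe set of its own in the ranking. All 5 ranked yolk protein genes were in the brightest 10 percent and 4 in the brightest 1 percent. They read 25930.1 in vit-5, 22988 in vit-4, 17604 in vit-6, 9514 in vit-1 and 8249 in vit-2. The further probe sets of vit-4 read 22280.1 and 278, and that of vit-6 read 10005. vit-1 and vit-2 were each read by 1 probe set not open to cross-hybridisation. Genes of the eggshell and of egg activation had 12 of 16 in the band. Among them were perm-4 at 15509.5 and perm-2 at 13924, which serve the permeability barrier of the eggshell, and the chondroitin proteoglycans cpg-2 at 14016.5 and cpg-1 at 6914. The probe set of perm-4 not open to cross-hybridisation read 185, outside the band, and that of perm-2 read 6578. The lowest gene of the eggshell list was gna-2, an enzyme for the chitin precursor, at 646. The receptor that takes yolk into oocytes, rme-2, read 1770.4, while the gonadal sheath regulators ceh-18 and lim-7 read 291 and 46.8, the second under the floor.

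Genes of oocytes and of the early embryo's maternal store were bright as well. RNA-binding proteins of oocytes, which hold and release maternal messages, had 20 of 24 genes in the band. The zinc finger protein pos-1 read 13286, car-1 read 9803, the KH domain protein mex-3 read 8911 and the helicase cgh-1 read 8157. The dimmest was fbf-1, a regulator of germline stem cells, at 149. Of 26 genes of cell division and DNA replication, 17 were in the band, with the cyclin cyb-3 at 11823, the replication helicase subunit mcm-7 at 9088 and the kinase plk-1 at 4749. Germ granule and small RNA genes had 5 of 19 in the band, led by the helicase glh-1 at 4818 with pgl-1 at 1719. Of 25 genes of meiotic chromosomes, 24 were above the floor and 1 was in the band, the axis protein him-3 at 3032, and the exception under the floor was the kinase chk-2 at 53.1. Genes switched on in the embryo itself stood apart from the maternal ones, with 0 of 15 in the band and 7 above the floor. The gut-specifying factor end-1 was their brightest at 187, and tbx-35 was among those under the floor at 12.7.

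Sperm genes split by family. All 23 ranked genes of the major sperm protein, which forms the cytoskeleton of crawling sperm, were in the brightest 10 percent and 12 in the brightest 1 percent. They ranged between 3749 in msp-32 and 13859 in msp-78, and every one was ranked by a probe set open to cross-hybridisation. The only probe set of the family not open to it, the second of msp-32, read 212, well outside the band. These genes are near-identical copies, so the signal cannot be assigned to single members. Of the 32 other sperm genes, 4 were in the band, led by msd-2 at 4127 and msd-4 at 3524, which encode small proteins with a major sperm protein domain. That share, 12.5%, lies near the 10.0% of all genes, and all 4 were ranked by probe sets open to cross-hybridisation. The rest ran from ssp-10 at 1484 down to spe-38 at 18.6. Among them were gsp-3 at 714, the sperm-supplied embryonic factor spe-11 at 220 and spe-9, needed for contact with the egg, at 62.4. The membrane fusion gene fer-1 lay under the floor at 41.6.

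**Figure D4:**
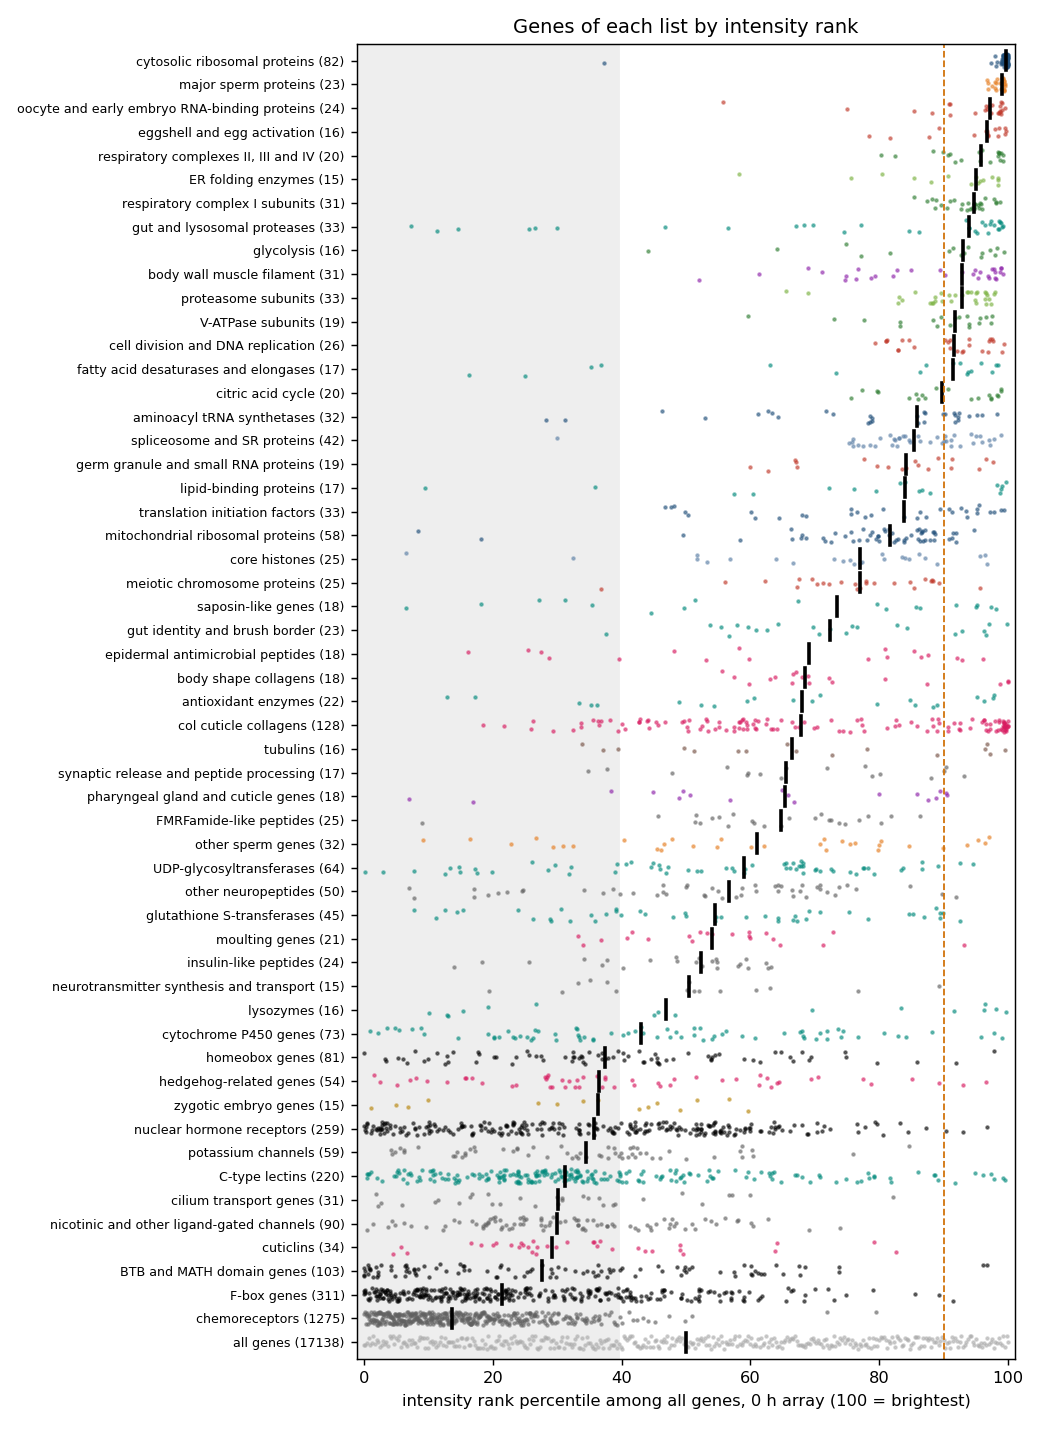
Rank percentile by intensity at 0 h (horizontal axis, 100 is brightest) of the genes in each list of 15 or more ranked genes, with the number of genes in brackets. Points are genes, up to 400 evenly spaced per row, black bars are medians, the dashed line is the limit of the brightest 10 percent, and grey marks ranks at or below the floor, which have no order. Cytosolic ribosomal proteins (median 99.7) are on top, the chemoreceptor median lies in the grey, and all genes (50) are in the last row.

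Energy metabolism was bright in most of its parts. Complex I of the respiratory chain had 25 of 31 genes in the band and complexes II, III and IV had 16 of 20. The Rieske iron-sulphur protein isp-1 read 11124 and cytochrome c, cyc-2.1, read 10360.4. The second cytochrome c gene, cyc-2.2, was the dimmest of its list at 734. ATP synthase had 9 of 12 in the band, with the beta subunit atp-2 at 9692. Of 8 genes of the mitochondrial genome, 7 were in the band, led by ND4 at 15074 and COX3 at 9844, and the exception was ND5 at 303. Glycolysis had 11 of 16 genes in the band and the citric acid cycle 10 of 20. The glyceraldehyde phosphate dehydrogenase gpd-2 read 12854, and icl-1, the glyoxylate cycle enzyme, read 8213. The proton pump of the vacuole, the V-ATPase, had 11 of 19 in the band, with vha-5 lowest at 188. The carriers that exchange ADP and ATP across the mitochondrial membrane differed from the rest, with ant-1.1 at 4545 and ant-1.2 at 15.1, under the floor, and 1 of 4 in the band.

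Protein folding and turnover genes of constant use were bright, and the list named for stress-inducible chaperones had a lower median rank. The proteasome had 20 of 33 genes in the band, and constitutive chaperones of the HSP70, HSP90 and HSP60 classes had 6 of 8, led by hsp-90 at 7158. The list of folding genes of the endoplasmic reticulum had 10 of 15 in the band. Among them were the disulphide isomerase pdi-6 at 6560.3 and calreticulin, crt-1, at 6175. That list also holds trap-1, trap-2, trap-3 and trap-4, which are not folding enzymes and were all in the band. The ubiquitin genes ubq-2 and ubq-1 read 11134 and 6807. The chaperonin TRiC, a ring built from all its subunits in equal number, had 6 of 8 genes in the band. Its cct-1 read 5939, but cct-8 read 72.1 and cct-3 read 38.1, under the floor, each on its only probe set. In the list of stress-inducible chaperones, hsp-16.1, hsp-16.11, hsp-16.48 and hsp-16.49 were not ranked. Of the 8 ranked, 0 were in the band, where all genes give 10.0%, and 8 were above the floor. Their median percentile was 74.4. The 8 include the small heat shock genes hsp-12.3 at 581, hsp-43 at 520 and hsp-12.6 at 76.4, whose induction by stress was not examined here. The median is thus one of the list and not of chaperones shown to be inducible. The brightest were hsp-4, the ER chaperone induced by unfolded protein, at 1469 and hsp-17 at 1173, and the heat shock gene hsp-16.2 read 466. Antioxidant enzymes had 4 of 22 genes in the band, with the superoxide dismutase sod-1 at 4943 and the peroxiredoxin prdx-2 at 4884. Ferritins, which store iron, read 5846 in ftn-2 and 519 in ftn-1, and metallothioneins, which bind metals, read 3419 in mtl-2 and 177 in mtl-1.

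Cuticle collagens were spread over nearly the whole range. Of 128 genes named col, 41 were in the band and 18 in the brightest 1 percent, yet their median percentile was 67.9 and 114 of them were above the floor. After col-93 came col-119 at 23078, col-160 at 20347 and col-124 at 19698, and col-40 lay under the floor at 25.8. Of the 18 collagens named for body shape mutants, dpy-13 at 22732, sqt-3 at 20131 and dpy-4 at 7255 were in the band. The second probe set of sqt-3, the one not open to cross-hybridisation, read 1303. All probe sets of col-93, col-119, col-160, col-124, dpy-13 and dpy-4 in the ranking were open to it. Among other products of the epidermis, cuticlins had 0 of 34 genes in the band and 10 above the floor, and hedgehog-related genes 2 of 54 and 23 above the floor. Moulting genes had 1 of 21 in the band but 18 above the floor, with a median percentile of 54.01. The moulting gene in the band was lrp-1, a lipoprotein receptor relative, at 2102. Epidermal antimicrobial peptides had 3 of 18 in it and a median percentile of 69.01, led by nlp-33 at 3309.9.

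Muscle genes of the body wall had a higher median rank than those of the pharynx. Of 31 genes of the body wall filament, 17 were in the band and all 31 above the floor. Paramyosin, unc-15, read 10589, the myosin light chain mlc-2 read 8121, the cofilin gene unc-60 read 7866 and troponin C, pat-10, read 7439. The myosin heavy chain unc-54 read 4090.2 and myo-3 read 568. Of 8 pharyngeal muscle genes, 1 was in the band, the myosin myo-1 at 2527, and the pharyngeal myosin myo-2 read 413. All 8 were above the floor, and their median percentile was 74.9, against 92.9 for the body wall list. Gland and cuticle genes of the pharynx had 2 of 18 in the band, abu-14 at 1587 and phat-4 at 1548. The shares of both pharynx lists, 12.5% and 11.1%, lie near the 10.0% of all genes. The difference between body wall and pharynx lists was not tested. Actins read 16745 in act-4, 13977 in act-3 and 3621 in act-5, the actin of the gut lining. The probe sets of act-4 and act-3 were not open to cross-hybridisation. That of act-5 was, so its signal cannot be assigned to this gene alone. The tubulin tba-2 read 14751.5 and its further probe sets 3135 and 2384, all of them open to cross-hybridisation. In all, 4 of 16 tubulins were in the band.

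Lists of intestinal products ranged widely. Gut and lysosomal proteases had 18 of 33 genes in the band, with the aspartyl proteases asp-5 at 10148 and asp-1 at 9702 and the cathepsin B relative cpr-9 at 8230.3. Fatty acid and retinol binding proteins far-2 and far-1 read 15471 and 9334. The invertebrate lysozyme ilys-5 read 14959, and 5 of 16 lysozymes were in the band. Fatty acid desaturases and elongases had 9 of 17 in it, led by elo-5 at 6201. The list of gut identity and brush border genes had 6 of 23 in the band and a median percentile of 72.4, and its transcription factor elt-2 read 169. Large detoxification families held few bright members, with 3 of 73 cytochrome P450 genes, 2 of 64 UDP-glycosyltransferases and 1 of 45 glutathione S-transferases in the band. The 3 P450 genes all belong to the CYP35 group, cyp-35C1 at 9296, cyp-35A3 at 5005 and cyp-35A2 at 3147. C-type lectins, sugar-binding proteins, had 7 of 220 in the band, led by clec-87 at 13446. Saposin-like genes had 5 of 18 in the band, led by spp-10 at 5705, and lysosomal lipases 0 of 8, with lipl-5 highest at 766.

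Families of nervous system genes differed in how many were above the floor, and few of their members were in the band. Median percentiles lay above the 50 of all genes for FMRFamide-like peptides (64.7), other neuropeptides (56.6), insulin-like peptides (52.3) and synaptic release and peptide processing (65.6). Neurotransmitter genes lay near it (50.4) and touch neuron genes below it (42.1). Medians of potassium channels, ligand-gated channels, cilium transport genes and chemoreceptors lay under the floor. Neuropeptides of the FMRFamide-like family had 24 of 25 genes above the floor, against 60.4% of all genes, and 0 in the band, with flp-1 highest at 1105. Insulin-like peptides had 18 of 24 above the floor. Of 17 genes of synaptic release and peptide processing, 3 were in the band: synaptobrevin snb-1 at 2109, the clathrin adaptor unc-11 at 1559.8 and the peptide-cutting protease egl-3 at 1516. Other neuropeptides had 38 of 50 genes above the floor and 1 in the band. That gene, nlp-40, which is known as a peptide of the intestine, read 1811. Genes for making and carrying neurotransmitters had 9 of 15 above the floor and 0 in the band, led by the octopamine enzyme tbh-1 at 1415. Touch neuron genes had 6 of 10 above the floor, with the tubulin mec-7 at 447. Both counts lie near the 60.4% of all genes. Nicotinic and other ligand-gated channels had 27 of 90 above the floor and potassium channels 23 of 59, led by unc-49, a GABA receptor, at 483 and by twk-18 at 989. Cilium transport genes, which build the sensory endings of neurons, had 7 of 31 above the floor. Chemoreceptors had the smallest share above the floor in this class, 40 of 1275 genes or 3.14%, and 0 in the band. Their brightest members were srr-4 at 695 and sri-40 at 567.

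Regulatory families also had few members in the band. Of 259 nuclear hormone receptors, 3 were in the band, led by nhr-49, a regulator of fat metabolism, at 3809. Of 81 homeobox genes, 2 were in the band, pal-1, whose RNA is stored in the oocyte, at 4957 and ceh-38 at 1820.1. F-box genes had 1 of 311 in the band, fbxc-50 at 1746, and 2 genes with BTB or MATH domains (1.94% of those ranked) were in it, bath-42 at 3702 and bath-44 at 3328. Among markers of small tissues, 3 of 6 glia genes, 3 of 4 coelomocyte genes and all 7 excretory cell genes were above the floor. All genes give 60.4% there, and the difference of these short lists from that share was not tested. None of these markers was in the band. The glia genes hlh-17 and mir-228 and the excretory cell gene exc-1 were not ranked.

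Many bright genes belonged to no list. The 79 lists held 3978 genes, among them 529 of the 1713 genes in the band (30.9%) and 141 of the 171 brightest. The 5 brightest genes outside them were sip-1 at 21593, epic-1 at 20960.1, F22H10.3 at 15093, Y82E9BR.3 at 14983.5 and the galectin lec-1 at 14491. The first, sip-1, is a small heat shock protein of oocytes and embryos, and its second probe set read 15599.8. In lec-1 the second probe set read 142. Among the next were ran-1 at 13848, the GTPase of nuclear transport, icd-1 at 13788, a subunit of the nascent polypeptide complex, and rack-1 at 13352, a protein of the ribosome. Genes that carry a gene name were in the band in 13.1% of 10405 cases, and genes known by a sequence name alone in 5.24% of 6733. Genes often used as references between worm samples were not uniformly bright, with 4 of 10 in the band, gpd-2 at 12854 and rpb-2 at 356 at the ends.

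The X chromosome held few of the brightest genes. It carries 13.7% of the ranked genes and held 128 of the 1713 in the band, or 7.47%. Of the genes above the floor, 13.7% lay on X, and of those at or below it 13.9%, so the gap appeared among bright genes and not in detection. Sorted into deciles by intensity, of which 6 lay wholly above the floor, the share of X genes was 7.47% in the brightest, 19.5% in the fifth and 17.04% in the sixth. Lists differed in their share of X genes as well. Oocyte, meiotic, division and eggshell genes together had 0 of 91 on X and both sperm lists had 0 of 55, while translation lists had 6 of 224. Germ granule and small RNA genes had 3 of 19 on X, namely meg-1, meg-3 and meg-4. Body wall muscle had 11 of 31 genes on X, FMRFamide-like peptides had 10 of 25 and other neuropeptides 19 of 50. Some somatic groups lay below the 13.7% of all genes, with 32 of 1275 chemoreceptors and 7.33% of listed intestinal genes. All listed nervous system genes had 7.52% on X, but chemoreceptors are 1275 of these 1596 genes. Ligand-gated channels had 24 of 89 genes with a known chromosome on X, and potassium channels 17 of 59. Cilium transport genes had 7 of 31 on X, touch neuron genes 5 of 10 and synaptic release genes 3 of 17. Neurotransmitter genes had 2 of 15 and insulin-like peptides 1 of 24. Yolk proteins, which the intestine makes, had 4 of 5 on X.

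**Figure D5:**
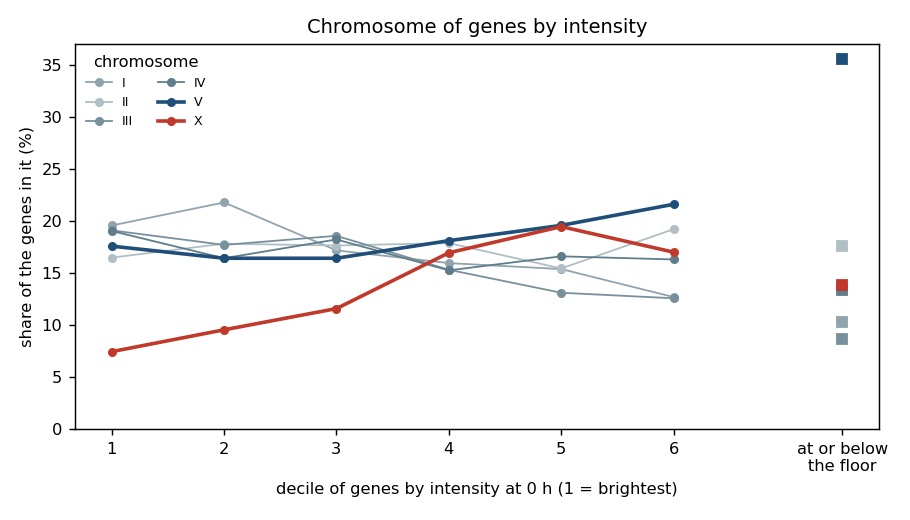
Share of genes on each chromosome (vertical axis, percent) in deciles of genes by intensity at 0 h (horizontal axis, 1 is brightest). Lines join the 6 deciles wholly above the floor, and squares are all genes at or below the floor as 1 group. X, in red, has 7.47% in the brightest decile and 19.5% in the fifth, and V, in dark blue, has 35.7% of the genes at or below the floor.

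Among the other chromosomes, III and I had the largest share of their own genes in the band, 14.6% and 13.6%, and V the smallest of the autosomes at 6.97%. V held 35.7% of the genes at or below the floor. Chemoreceptors made up 20.5% of the ranked genes on V and 35.6% of its genes at or below the floor. Without chemoreceptors, 8.77% of the genes on V were in the band. Major sperm protein genes lay on II (13 genes) and IV (10 genes). Neighbours along a chromosome shared the band more often than other pairs. After a gene in the band the next ranked gene was in it in 19.4% of 1453 pairs, and after another gene in 9.64% of 12115. Without pairs that share a name stem, as copies of a family do, the shares were 18.5% and 10.3%.

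The array carries control probe sets at both ends of a few worm transcripts, and the 3' end was brighter in all 4. The 3' probe set read 12675 and the 5' probe set 2966 for actin, a ratio of 4.27, and for Gapdh 6569.7 and 2508, a ratio of 2.62. For ubiquitin the ratio was 38.9 and for catalase 29.4. The distance of the other probe sets from the 3' end of their transcripts was not analysed here.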

How the data were processed

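Total RNA of whole worms was labelled from the 3' end and hybridised to 1 Affymetrix array per group, and the array at 0 h was used. The authors deposited 1 intensity per probe set and array. Affymetrix Expression Console 1.1, MAS5 and RMA are named, per the submitters' processing notes. What each of them did, and in which order, is not given in the sources used here. Deposited values lie on a linear scale and are not centred on genes, as read from their range, and with 1 column and no ratio a direction does not arise. The median of the 0 h column was 101.8, and the exposed columns had medians of 100.2 (4 h) and 102.8 (24 h).

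Probe sets with 1 gene symbol in the array's annotation were kept. Gene IDs of 20701 of these 20766 were found in the RefSeq table of assembly WBcel235, which gave names, chromosomes and neighbours and no coordinates. Probe sets named _s_ or _x_ were treated as open to cross-hybridisation. Each gene took its brightest probe set, the floor was the brightest of 8 controls for absent transcripts, and lists were described by counts in the brightest 10 percent and 1 percent and by their median percentile. No test was possible with 1 array per group.

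The 79 lists and the genes named were chosen with earlier results of these data known. After values were seen, older symbols in the ribosomal and mitochondrial genome lists were replaced by current ones, and 4 genes placed in a wrong list (his-24, nuaf-3, dnj-30 and lys-8) were taken out of it. The brightest 1 percent was added then as well, as were the genes named beyond the rule. That rule takes the 30 brightest genes, the 4 brightest and the dimmest member of each list, all members of the yolk, actin, stage, elongation, ferritin and metallothionein lists, and the 5 brightest genes outside all lists; only part of these are printed. Protein lengths and promoter letters were planned and not analysed here. Ranking and counting were tested on simulated data. Python 3.11.15, numpy 2.4.6, pandas 2.3.3 and matplotlib 3.10.9 were used.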

Additional observations from a re-analysis of the deposited data

How the results depend on the processing

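Without probe sets open to cross-hybridisation, fewer genes could be ranked. The brightest 10 percent then held 37 of 39 ribosomal protein genes, 3 of 3 yolk genes, 12 of 14 oocyte RNA-binding genes, 14 of 14 complex I genes, 10 of 15 body wall muscle genes, 16 of 80 col genes, 10 of 24 proteases, 6 of 12 cell division genes and 0 of 1 major sperm protein genes. In a band of the brightest 5 percent, 8 cell division and 10 complex I genes remained, and with only genes above the floor ranked, 8 cell division genes did. Chemoreceptors above the floor numbered 229 with the floor at the 25th percentile of probe sets and 8 with it at the median. With a floor 1.5 times as high, 11115 probe sets were above it, against 12800. Counts moved by over 1.5 times in 38 results and not in 42 without probe sets open to cross-hybridisation. These numbers were 32 and 47 in the 20 percent band and 28 and 51 in the 5 percent band. They were 23 and 57 with the dimmest probe set, 22 and 57 with only genes above the floor, and 10 and 69 with the mean of all. A wider or narrower band, or fewer ranked genes, changes a count in itself, so a moved count is not a changed result. Of the 79 lists, those on the same side of the share of all genes numbered 75 with the dimmest probe set per gene, 76 with the mean of all, 71 without probe sets open to cross-hybridisation, 75 in the 5 percent band, 77 in the 20 percent band and 75 with only genes above the floor. When probe sets open to cross-hybridisation were left out, the lists that changed side were meiotic chromosome proteins, major sperm proteins, other sperm genes, adenine nucleotide translocases, stress-inducible chaperones, body shape collagens, glutathione S-transferases, and ferritins and metallothioneins. Synaptic release genes changed side with the dimmest probe set, in the 5 percent band and with only genes above the floor. The share of X in the band was 7.30% with the dimmest probe set and 8.22% when those open to cross-hybridisation were left out. No paired analysis was possible because each group has 1 array, and no replicate could be left out. The planned count of protein lengths and promoter letters was not run. Signal over background limits the dim families: genes at or below the floor have no order.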

Other observations

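Probe sets outside the ranking also held bright signal. Of 887 annotated to several genes, 51.7% were above the floor and 89 reached the limit of the brightest 10 percent. The brightest read 26861 for the collagens col-94 and col-92 together and 25976 for vit-4 and vit-5 together. Of 895 probe sets with no gene symbol, 280 (31.3%) were above the floor and 33 reached that limit, the brightest at 21468.

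Of 933 probe sets annotated to pseudogenes in the current table, 175 (18.8%) were above the floor and 8 reached the limit of the brightest 10 percent. They include F07H5.3 at 5876, prg-2 at 4489.7 and wago-2 at 2852, of which the last 2 are named for Argonaute families of the germline. Among RNAs not annotated as protein-coding, lep-5 read 5074 and tts-1 read 4574. These genes were chosen after their values were seen.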
